A study of Mus musculus with 46 samples.

Results

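The genes described here encode the subunits of the ligand-gated ion channels other than NMDA receptors, and they were chosen by symbol from the RNA count table, with no measured value used. They comprise 60 of the 31854 genes in the table. GABA-A receptor subunits account for 19 of them, nicotinic acetylcholine receptor subunits for 16, P2X receptors for 7, glycine and kainate receptor subunits for 5 each, AMPA receptor subunits for 4, and delta glutamate receptors and 5-HT3 receptor subunits for 2 each.

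These channels open within milliseconds of binding a transmitter and so set the fast synaptic input of a neuron. GABA-A and glycine receptors are pentamers that pass chloride and usually inhibit the mature neuron, and the choice of alpha, gamma, delta, epsilon or theta subunit sets whether a GABA-A receptor serves a synapse or senses ambient GABA. AMPA and kainate receptors are tetramers that carry glutamate-driven excitation, whereas the delta receptors act mostly as adhesion proteins bound through cerebellins. Nicotinic and 5-HT3 receptors are pentameric cation channels for acetylcholine and serotonin, and P2X receptors are trimers opened by extracellular ATP. In the arcuate nucleus of the hypothalamus, AgRP neurons are GABAergic and promote feeding, and they receive both glutamatergic and GABAergic input. The neighbouring POMC neurons promote satiety.

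RNA was taken from male NuTRAP mice on a C57BL/6J background, in which Cre recombinase switches on a GFP-tagged ribosomal protein L10a, so that ribosome-bound RNA of the cells in which Cre has acted can be pulled down (TRAP). The Cre driver was AgRP-IRES-Cre for the 11 AgRP libraries and POMC-IRES-Cre for the 6 POMC libraries, and each library pooled the arcuate nuclei of 4 mice aged 6 to 11 weeks. Fed mice (3 AgRP and 2 POMC libraries) had food ad libitum and a PBS injection. Fasted mice (4 and 2) received PBS after 18 to 20 h without food, and leptin-treated mice (4 and 2) were fasted likewise and given leptin at 5 mg/kg i.p., all 3 h before death. Chromatin accessibility was measured by ATAC-seq on flow-sorted GFP-positive nuclei of AgRP-IRES-Cre NuTRAP mice in the same 3 states (2 libraries each), and on GFP-positive (AgRP-positive) and GFP-negative (AgRP-negative) nuclei sorted from the same pooled samples of fed, untreated mice (2 each). The Cre lines mark every cell of the dissected tissue in which the driver is or has been active. The AgRP and POMC libraries come from different mice, so that the cell type cannot be told apart from the mouse line.

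RNA libraries held 25581041 to 54511107 counted reads, and those of ATAC-seq across states 8263234 to 17190963. The summed level of 6 AgRP-neuron markers was 1654 to 6495 CPM (read counts scaled to equal library size) in AgRP and 112 to 203 in POMC libraries, and that of 5 POMC-neuron markers was 135 to 189 against 1664 to 3145. In these pulldowns, fewer cells of a type and less RNA per cell cannot be told apart. Markers of other cells were present throughout: the 6 astrocyte genes summed to 649 to 1494 CPM and the 7 microglial genes to 18.6 to 54.6 CPM. AgRP replicate 4 and POMC replicate 2 stood apart from the other libraries of their line. In AgRP replicate 4, 408 of 13435 genes were over 2-fold higher and 15 lower than in the other AgRP replicates, against 12 to 19 higher and 23 to 82 lower for replicates 1 to 3. In POMC replicate 2, 368 were higher and 6 lower than in replicate 1. Among the channel subunits, Gabrb1, Gabrg3 and Glra1 were over 2-fold higher in AgRP replicate 4. Across genes the shift of AgRP replicate 4 correlated with that of POMC replicate 2 (Pearson r = 0.766 over 13435 genes, which are not independent). Glial markers moved with these libraries. The astrocyte sum was 1149 to 1214 CPM in AgRP replicate 4 against 649 to 934 in the other AgRP libraries, and 1386 to 1494 in POMC replicate 2 against 953 to 1088 in replicate 1. The sum of the 7 oligodendrocyte and precursor markers was 742 to 809 against 446 to 702 CPM, and 771 to 980 against 453 to 543. The part of these cells in the results was not tested. Results are therefore also given without these libraries where a call differs.

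A few stretches of DNA at promoters and peaks of genes described below are printed 5′ to 3′ from GRCm38.p6 with matches to the AP-1 (TGANTCA), GAS (TTCNNNGAA) and CRE (TGACGTCA) motifs in capitals. First is the start of the peak at the P2rx5 promoter, on the plus strand at chr11:73160104-73160403, directly before the gene whose RNA and promoter accessibility both rose with fasting. It is followed by the 250 bases before the RefSeq start of Chrna1, the other subunit gene that rose with fasting (chr2:73580339-73580588, minus strand, with 1 AP-1 match), and by those before Gabre, the subunit gene most raised in AgRP against POMC libraries (chrX:72274722-72274971, minus strand).
P2rx5 promoter peak: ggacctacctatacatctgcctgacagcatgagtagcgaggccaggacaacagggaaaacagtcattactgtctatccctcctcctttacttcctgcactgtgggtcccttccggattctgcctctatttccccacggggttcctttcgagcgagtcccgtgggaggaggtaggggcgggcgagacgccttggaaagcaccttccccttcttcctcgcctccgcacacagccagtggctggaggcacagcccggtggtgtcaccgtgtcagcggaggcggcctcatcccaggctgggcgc
Chrna1 promoter: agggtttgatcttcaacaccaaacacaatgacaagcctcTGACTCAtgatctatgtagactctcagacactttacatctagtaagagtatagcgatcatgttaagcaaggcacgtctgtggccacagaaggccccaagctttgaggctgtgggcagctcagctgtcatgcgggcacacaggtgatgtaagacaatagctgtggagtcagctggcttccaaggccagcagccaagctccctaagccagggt
Gabre promoter: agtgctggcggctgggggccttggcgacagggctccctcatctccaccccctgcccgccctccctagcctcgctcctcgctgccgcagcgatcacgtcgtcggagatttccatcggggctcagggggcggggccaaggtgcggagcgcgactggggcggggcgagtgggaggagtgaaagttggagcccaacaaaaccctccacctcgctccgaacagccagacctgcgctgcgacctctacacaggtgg

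The other 3 are intronic peaks, printed on the plus strand, whole or by their middle 300 bases. The Grik1 peak (chr16:88258501-88258724) opened with fasting, from 1 read in each fed library, and the Chrna9 peak (chr5:65973372-65973671) opened with leptin. The Gabrg3 window (chr7:56864595-56864894) belongs to a peak that was much more open in AgRP-positive than in AgRP-negative nuclei.
Grik1 intron peak: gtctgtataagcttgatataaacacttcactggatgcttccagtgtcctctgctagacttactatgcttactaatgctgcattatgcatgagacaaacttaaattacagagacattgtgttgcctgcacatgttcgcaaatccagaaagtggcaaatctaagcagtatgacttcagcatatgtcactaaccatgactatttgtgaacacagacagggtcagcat
Chrna9 intron peak: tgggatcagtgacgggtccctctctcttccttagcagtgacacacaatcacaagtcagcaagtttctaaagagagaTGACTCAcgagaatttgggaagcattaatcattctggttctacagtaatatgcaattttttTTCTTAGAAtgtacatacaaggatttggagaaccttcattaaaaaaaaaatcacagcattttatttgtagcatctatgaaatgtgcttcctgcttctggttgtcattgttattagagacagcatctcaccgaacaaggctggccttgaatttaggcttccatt
Gabrg3 intron peak: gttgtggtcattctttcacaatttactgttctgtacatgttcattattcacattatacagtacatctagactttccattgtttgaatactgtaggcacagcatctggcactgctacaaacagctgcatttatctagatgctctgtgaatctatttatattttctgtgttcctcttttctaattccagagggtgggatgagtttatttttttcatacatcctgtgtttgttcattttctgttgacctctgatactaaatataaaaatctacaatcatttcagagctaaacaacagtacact

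GABA-A receptor subunits dominated the channel RNA of both neuron types. Per kilobase of exon, their RNAs summed to 659 ± 167 CPM per kb in AgRP (SD, n = 11) and 812 ± 226 in POMC libraries (n = 6). Single libraries ranged from 520 to 999 and from 575 to 1118, so the lines overlapped. AMPA receptor subunits followed with 142 ± 17.2 and 179 ± 20.2, glycine receptor subunits with 129 ± 12.3 and 148 ± 21.3, and kainate receptor subunits with 98.1 ± 11.6 and 119.8 ± 6.25 CPM per kb. This order depends on the scaling by length. In CPM, kainate subunits (472 and 610) lay above glycine receptor subunits (346 and 377). Nicotinic subunits summed to 63.0 ± 4.64 and 78.6 ± 4.56 CPM per kb. P2X receptors, at 8.74 ± 1.71 and 7.24 ± 0.224 CPM per kb, and 5-HT3 subunits, at 1.08 ± 0.262 and 1.66 ± 0.446, were the lowest classes.

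Among single subunits, Gabrb1, a beta subunit, which forms the GABA binding site together with an alpha subunit, was among the highest. It stood at 147 ± 113 CPM per kb in AgRP and 242 ± 139 in POMC libraries, and at 82.8 ± 11.6 and 116 ± 12.5 without the libraries that stood apart. Its exon length in the table is 1860 bases, against 13838 in GENCODE vM21, so its level per kilobase depends on the annotation. Glrb, the beta subunit that anchors glycine receptors to gephyrin, had 74.7 ± 6.87 and 78.6 ± 4.79 CPM per kb, and Gria1, the AMPA receptor subunit GluA1, had 65.5 ± 12.3 and 98.2 ± 9.02. Behind Gria1 in AgRP libraries, the kainate receptor subunit Grik5 (55.7 ± 7.76), the theta subunit Gabrq (54.4 ± 8.07), Gabra5 (53.6 ± 8.78) and the delta receptor Grid1 (53.3 ± 5.28) lay within 1 SD of each other. Exon lengths also differed from GENCODE vM21 for Glrb (3029 against 4655 bases), Grik5 (3863 against 5168) and Grid1 (3428 against 5962), among others. Gabrq had 5352 in both, so the order of single subunits depends on the annotation too. The alpha subunit Gabra3 had 44.8 ± 7.17 CPM per kb in AgRP and 55.4 ± 3.03 in POMC libraries. The highest nicotinic subunit in AgRP libraries was Chrnb2, the partner of alpha4 in the main brain receptor, at 39.7 ± 2.29 CPM per kb. P2rx4 led the P2X receptors (5.22 ± 1.49) and Htr3a, the obligatory 5-HT3 subunit, led its pair (0.8294 ± 0.227).

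The lower end of the range held subunits better known from other tissues. Chrnd, of the muscle receptor, had no read in any of the 17 libraries. Chrng, also of muscle, and Gabra6, of cerebellar granule cells, reached at most 0.0537 CPM, where 1 read is worth 0.0183 to 0.0407 CPM. With a required mean above 1 CPM, 44 subunits entered the tests among AgRP libraries and 45 among POMC libraries. The 3 rho subunits of the GABA-A family were among those left out.

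**Figure D1:**
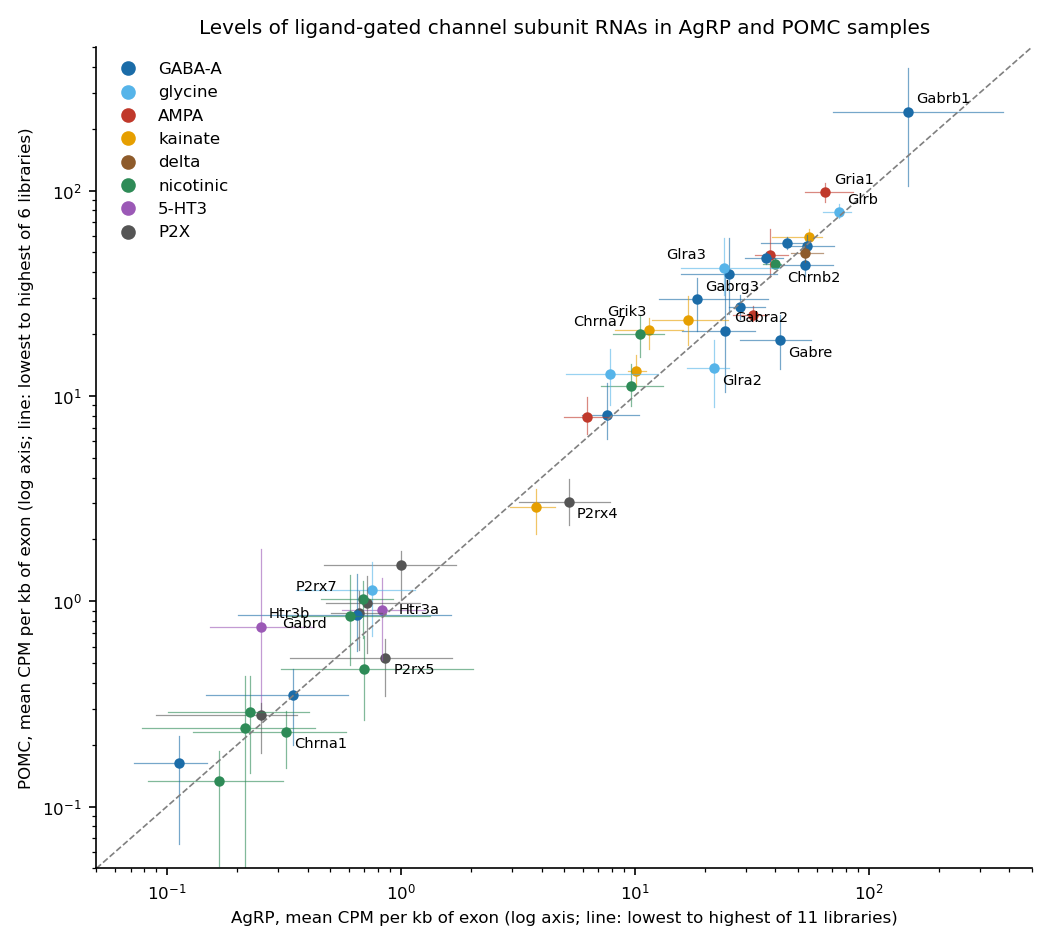
Mean level of the channel subunit RNAs reported here in CPM per kilobase of exon (both axes logarithmic), AgRP libraries (n = 11) on the horizontal and POMC libraries (n = 6) on the vertical axis, with lines from the lowest to the highest library and colours for the receptor classes. Points above the dashed line of equality (Gabrb1, Chrna7, Grik3, Htr3b) had the higher mean in POMC libraries and those below it (Gabre, Glra2, P2rx4) in AgRP libraries, and genes below 0.05 CPM per kb are not shown.

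Fasting changed few channel subunits in AgRP neurons. P2rx5, an ATP-gated P2X receptor, and Chrna1, the alpha subunit best known from the muscle nicotinic receptor, rose, and no other tested subunit passed the threshold of FDR below 0.05 and a log2 change beyond 0.5 (edgeR quasi-likelihood test). These were 2 of 44 tested subunits higher and 0 lower, where 2.82% of all 13401 genes tested were called higher and 1.07% lower. At an unadjusted p below 0.05, 6 of the 44 subunits were higher and 1 was lower, against 12.4% and 6.92% of all genes. The median log2 change was -0.056 over the tested subunits and 0.017 over all genes. None of the 5 glycine receptor subunits had an estimate above 0, against 7 of 14 GABA-A, 1 of 4 AMPA, 3 of 5 kainate, 3 of 8 nicotinic and 3 of 5 P2X subunits.

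P2rx5 lies at chr11:73160421-73172685. Its RNA in AgRP neurons was 0.806, 0.996 and 0.773 CPM in the fed libraries (replicates 1, 3 and 4), 3.78, 3.38, 3.20 and 2.10 in the fasted libraries (replicates 1 to 4) and 1.14, 1.94, 1.94 and 1.51 in the leptin-treated ones (replicates 1 to 4). Every fasted library lay above every fed and every leptin-treated one, and every leptin-treated one above every fed one. The log2 change with fasting was 1.86 ± 0.25, FDR = 0.00212, and it was called in each of the 7 fits that left out 1 library and without replicate 4 (1.91 ± 0.26, FDR = 0.00504).

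Chrna1 (chr2:73563215-73580338) measured 0.591, 0.822 and 0.773 CPM in fed, 2.66, 1.29, 2.00 and 2.24 in fasted and 1.66, 1.39, 1.69 and 1.19 in leptin-treated AgRP libraries. Fed and fasted libraries did not overlap, while the leptin-treated ones overlapped the fasted ones. The fasting change was 1.49 ± 0.26, FDR = 0.00833, and it missed the threshold without fed replicate 1 (FDR = 0.0520). At these levels both genes rest on few reads, 19 to 173 per AgRP library for P2rx5 and 19 to 92 for Chrna1. With every fed value below 1 CPM, both passed the filter of 1 CPM only through the fasted and leptin-treated libraries. Their calls against the fed state are therefore not independent of that filter. The AgRP-neuron marker sum was 1654 to 2363 CPM in fed, 2965 to 6495 in fasted and 2147 to 6422 in leptin-treated libraries, and its part in these results was not tested.

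Some other subunits came near the threshold. With the replicate number as a block, where 4.40% of genes were called higher and 2.54% lower, P2rx5 (1.81 ± 0.24, FDR = 0.000240) and Chrna1 (1.59 ± 0.25, FDR = 0.000973) were called. Gabra3, an alpha subunit common in the hypothalamus and monoamine neurons, measured 204, 205 and 200.0 CPM in fed and 149, 153, 129 and 168 in fasted libraries, which did not overlap. Its change of -0.43 ± 0.12, FDR = 0.0671 did not pass, and it was called lower without replicate 4 (-0.52 ± 0.12, FDR = 0.0268, where 3.01% of genes were called higher and 2.27% lower). For P2rx4, the P2X receptor also known from microglia, the fasting change was 0.48 ± 0.18, FDR = 0.168, and for Gabra5, the alpha subunit of extrasynaptic receptors, 0.27 ± 0.11, FDR = 0.194. Large estimates without a call belonged to low genes, such as Gabrd (0.72 ± 0.58, FDR = 0.571), the delta subunit of tonic GABA receptors, Chrna3 (-0.38 ± 0.23, FDR = 0.412) and P2rx3 (-0.31 ± 0.20, FDR = 0.457).

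**Figure D2:**
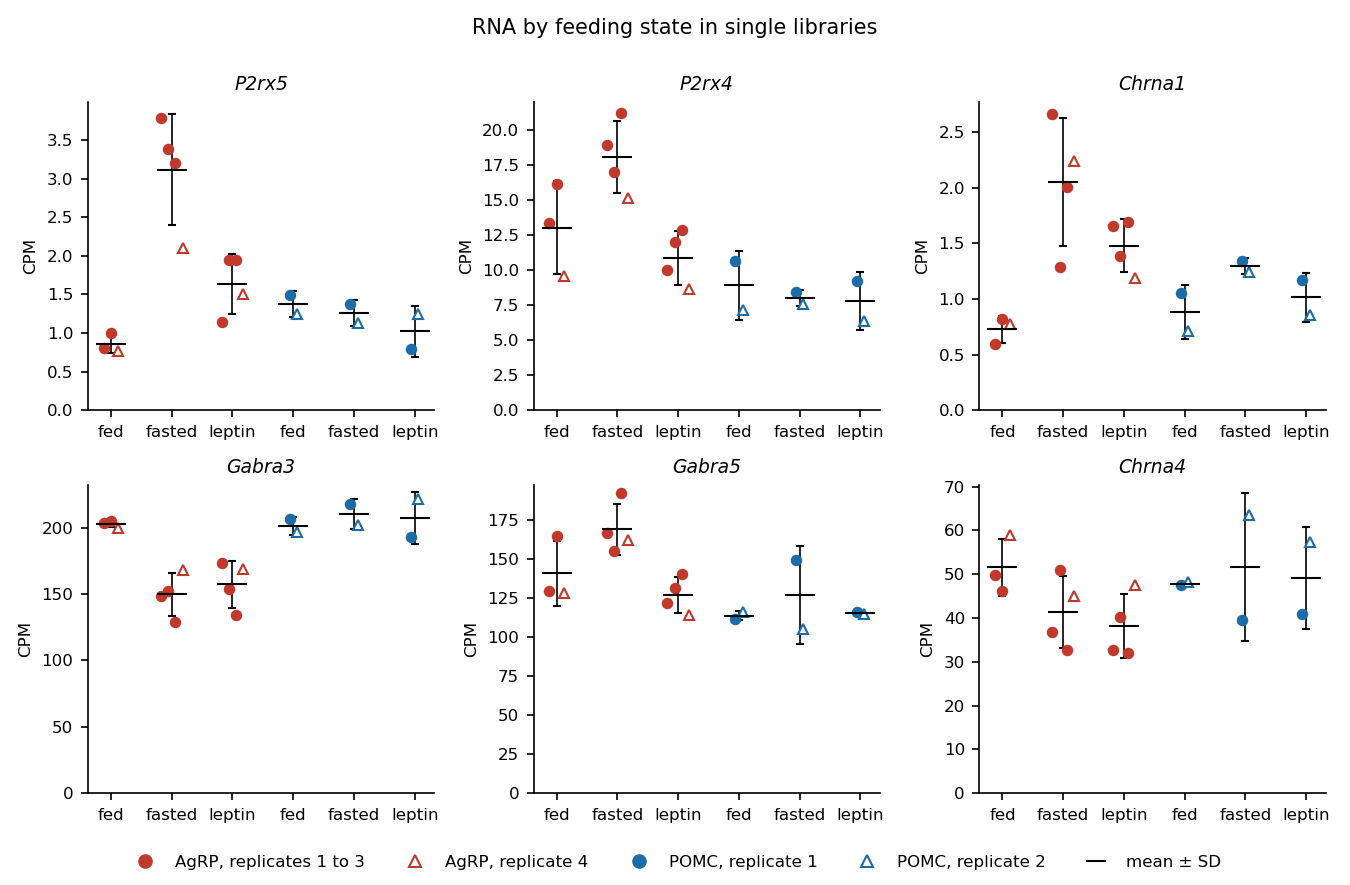
CPM of 6 channel subunits in single libraries by feeding state (AgRP red, POMC blue, open triangles for the libraries that stood apart, bars for mean ± SD). In AgRP libraries P2rx5 and Chrna1 are higher in every fasted than in every fed library, and P2rx4 and P2rx5 are lower in every leptin-treated than in every fasted library.

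Leptin given to fasted mice lowered 2 channel subunits in AgRP neurons, both P2X receptors. P2rx5 fell by 0.91 ± 0.21 on the log2 scale (FDR = 0.0477) and P2rx4 fell by 0.73 ± 0.17 (FDR = 0.0488). None of the 44 tested subunits rose, against 1.19% of all genes called higher and 0.634% lower, and at an unadjusted p below 0.05 the subunits counted 1 higher and 3 lower (4.73% and 4.40% of all genes). The fasting and leptin comparisons share the fasted libraries, so that the same values enter both with opposite sign.

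P2rx4 lies at chr5:122707544-122729738, beside P2rx7. It measured 13.3, 16.2 and 9.60 CPM in fed, 18.9, 17.02, 21.2 and 15.2 in fasted and 10.0, 12.0, 12.9 and 8.62 in leptin-treated AgRP libraries. Every leptin-treated library lay below every fasted one, while the fed libraries overlapped both. The microglial marker sum was 42.2, 24.6 and 43.2 CPM in the fed, 19.9, 18.6, 20.2 and 40.6 in the fasted and 24.1, 20.5, 24.0 and 38.4 in the leptin-treated libraries, with none of the 7 markers at 0 in a group. The part of microglia in the change of P2rx4 was not tested. Both leptin calls stood close to the threshold. Each held without fasted replicate 4 and was lost without any other single fasted or leptin-treated library (FDR up to 0.174 for P2rx4, without fasted replicate 3, and 0.155 for P2rx5, without fasted replicate 1). Fed libraries were not left out in these fits. With the replicate block, where 1.81% of genes were called higher and 1.10% lower, the FDR was 0.000191 and 0.00572. Without replicate 4 both were called (-0.70 ± 0.13, FDR = 0.0187 and -0.9994 ± 0.20, FDR = 0.0287, background 1.75% higher and 0.723% lower).

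The other subunits with the largest estimates were not called. Gabra5 measured 122, 131, 141 and 114 CPM after leptin against 167, 155, 192 and 162 in fasted libraries (-0.41 ± 0.10, FDR = 0.06998), so that these groups did not overlap. With the replicate block its FDR was 0.000456, below the threshold, but its change of -0.41 was too small for a call. Gabra2, the alpha subunit of many hypothalamic synapses, had a change of 0.32 ± 0.16, FDR = 0.647, Gabrg1 of 0.21 ± 0.09, FDR = 0.532 and Chrna1 of -0.45 ± 0.22, FDR = 0.623. For Chrnb3 the estimate of 0.25 ± 0.55 took the other sign (-0.31 ± 0.54) without replicate 4.

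Against the fed state, leptin-treated AgRP libraries had 2 subunits higher and 0 lower (background 3.73% and 1.75%). They were Chrna1 (1.04 ± 0.26, FDR = 0.0353) and P2rx5 (0.94 ± 0.25, FDR = 0.0395), which both passed the filter of 1 CPM only through the fasted and leptin-treated libraries. When single libraries were left out, Chrna1 kept the call only without leptin-treated replicate 4 and P2rx5 only without leptin-treated replicate 1 (FDR up to 0.144 and 0.141, both without fed replicate 1), and neither was called without replicate 4 in both states (1.13 ± 0.36, FDR = 0.0708 and 0.91 ± 0.28, FDR = 0.0658, background 3.87% higher and 2.72% lower). With the replicate block, Chrna4, the alpha subunit of the main brain nicotinic receptor, was called lower (-0.50 ± 0.08, FDR = 0.000937, against -0.42 ± 0.19, FDR = 0.222 without the block, with 5.34% of genes called higher and 3.23% lower under the block). Its CPM was 49.7, 46.2 and 58.9 in fed and 32.8, 40.2, 31.9 and 47.5 in leptin-treated libraries.

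**Figure D3:**
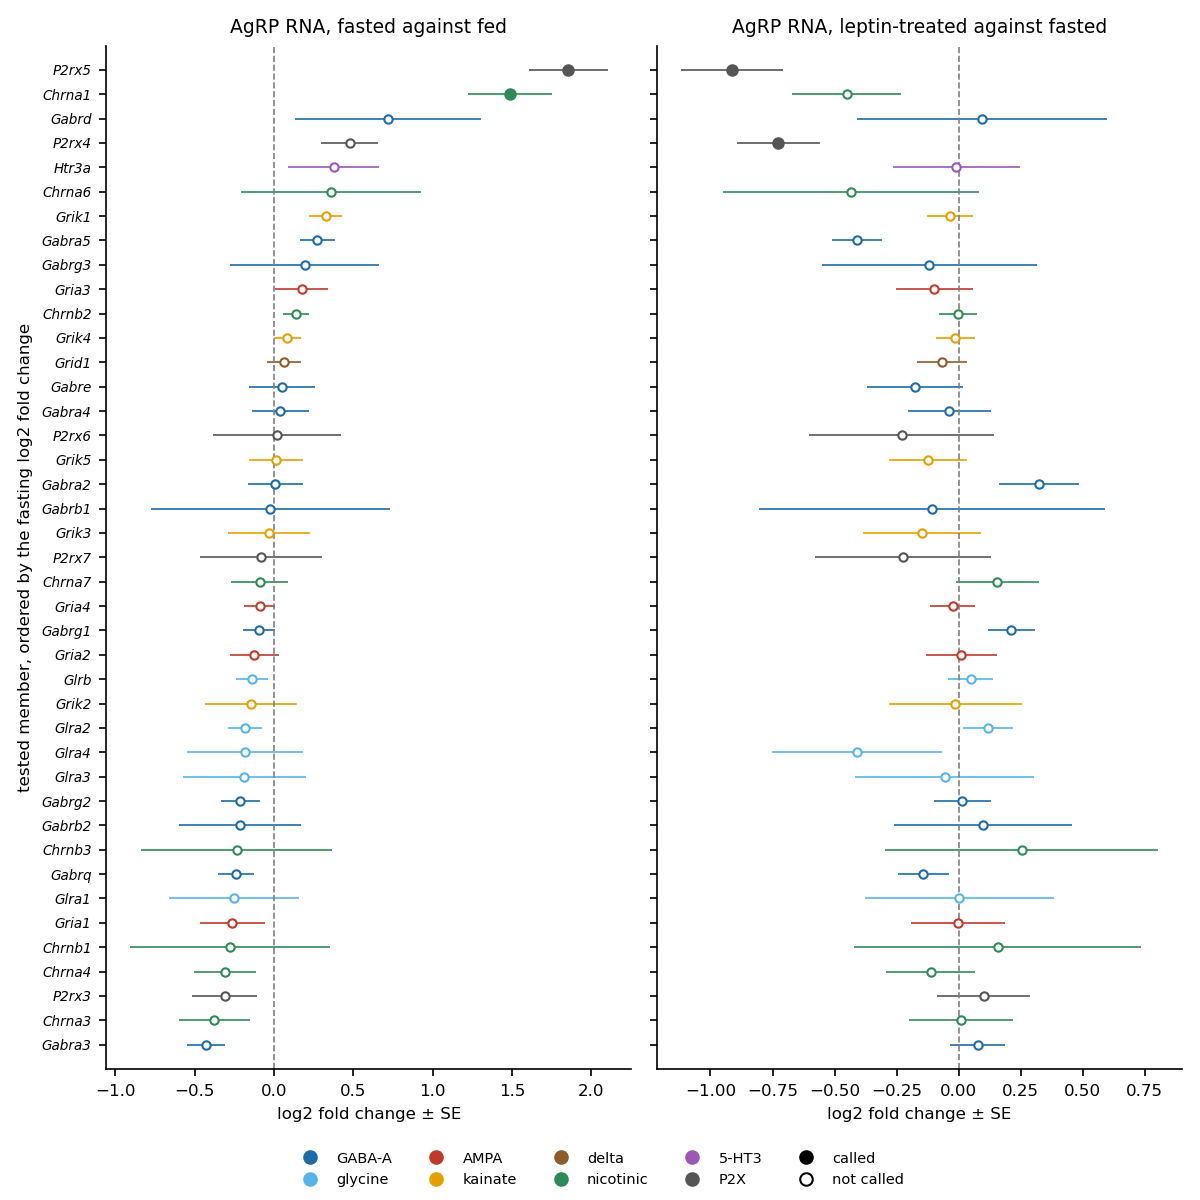
Log2 fold change ± SE of subunits tested in AgRP libraries, fasted against fed on the left and leptin-treated against fasted on the right, coloured by receptor class and filled where called. Filled points mark P2rx5 and Chrna1 with fasting and P2rx5 and P2rx4 with leptin, and the wide bars of Gabrb1 and Gabrg3 belong to genes that were high in replicate 4.

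In POMC neurons no subunit was called in either comparison. The edgeR test called 0 of 45 tested subunits and 0.00% of all 13412 genes with fasting, and likewise with leptin, and DESeq2 called 0 subunits in each. At an unadjusted p below 0.05, 1 subunit was higher with fasting and 0 with leptin (1.01% and 0.857% of all genes). That subunit was Htr3b, the 5-HT3 partner of Htr3a, which measured 0.636 and 0.707 CPM in the fed, 4.33 and 1.49 in the fasted and 2.28 and 1.47 in the leptin-treated POMC libraries (2.12 ± 0.55, FDR = 1.00 by edgeR). In POMC libraries P2rx5 measured 1.49 and 1.25 CPM when fed and 1.37 and 1.13 when fasted, and Chrna1 measured 1.05 and 0.707 CPM when fed and 1.34 and 1.24 when fasted. Each POMC state had 2 libraries, so that the spread was estimated from few degrees of freedom.

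Whether the fasting change differed between the lines was tested as an interaction over all 17 libraries. No subunit was called by edgeR, against 0.141% of genes with a larger and 0.0223% with a smaller change in AgRP neurons, and at an unadjusted p below 0.05 the subunits counted 2 and 1 (5.63% and 3.33% of all genes). The largest difference was that of P2rx5 (1.97 ± 0.41, FDR = 0.0651), which DESeq2 called (1.95 ± 0.46, FDR = 0.00432) and which edgeR called without AgRP fasted replicate 4 (FDR = 0.0392). With replicates as a block within each line, P2rx5 (1.91 ± 0.40, FDR = 0.00835) and P2rx4 (0.60 ± 0.17, FDR = 0.0356) were called larger in AgRP neurons and Gabra3 (-0.52 ± 0.13, FDR = 0.0186) lower, where 4.33% and 1.89% of genes were called. For leptin, 0 subunits were called by edgeR and by DESeq2 (background 0.0447% and 0.0372% by edgeR), with 0 larger and 1 smaller, P2rx4, at an unadjusted p below 0.05 (1.17% and 1.73% of all genes).

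More subunits were called between AgRP and POMC libraries than between feeding states. Averaged over the 3 states, AgRP libraries had 3 of 45 tested subunits higher, Gabre, P2rx4 and Glra2, and 7 lower, Htr3b, Chrna7, Grik3, Glra3, Glra1, Gria1 and Chrna3. Among all 13435 genes 6.51% were called higher and 6.45% lower. The fit took the 17 libraries as independent. Same-numbered libraries of a line correlated across states (0.536 to 0.814 in AgRP and 0.733 to 0.770 in POMC RNA). The SE and FDR of these differences may therefore be too small, and the ranges given below are not those of 11 and 6 independent samples. Without AgRP fasted replicate 4 the subunits counted 3 higher and 13 lower (background 7.13% and 9.63%). The median log2 difference was -0.30 over the subunits and -0.018 over all genes. Without AgRP replicate 4 and POMC replicate 2 in every state, these medians were -0.21 and 0.0018. Markers of other cells also differed between the lines. The median astrocyte sum per state was 759 to 934 CPM in AgRP and 1169 to 1254 in POMC libraries, that of the 5 tanycyte and ependymal markers 32.0 to 44.4 against 79.7 to 86.6, and that of microglia 20.01 to 42.2 against 37.7 to 46.5. For 9 markers of other arcuate neurons the median sum was 386 to 412 CPM in AgRP against 456 to 498 in POMC libraries. No marker of these lists was at 0 in a group, and their part in the differences between lines was not tested.

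Gabre, the epsilon subunit, which makes GABA-A receptors less sensitive to benzodiazepines, is part of the X-linked cluster with Gabra3 and Gabrq (chrX:72255999-72274803). It had a lowest value of 85.9, a median of 120.2 and a highest value of 173 CPM in AgRP libraries and a lowest value of 41.1, a median of 55.7 and a highest value of 75.3 CPM in POMC libraries, with no overlap (1.15 ± 0.18, FDR = 0.000314). Its cluster neighbours were not called, Gabrq with a difference of 0.02 ± 0.08, FDR = 0.877, and Gabra3 (-0.30 ± 0.07, FDR = 0.00488) because its difference was under the fold threshold. Glra2, the glycine receptor alpha subunit best known from development, measured 46.1 to 69.02 CPM in AgRP and 24.1 to 51.1 in POMC libraries (0.67 ± 0.14, FDR = 0.00192), and P2rx4 measured 8.62 to 21.2 and 6.35 to 10.7 (0.73 ± 0.14, FDR = 0.00110). Both ranges overlapped across states. The microglial marker sum was 18.6 to 43.2 CPM in AgRP and 25.8 to 54.6 in POMC libraries, and its part in the P2rx4 difference was not tested.

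Of the subunits higher in POMC libraries, Chrna7, which forms homomeric nicotinic receptors of high calcium permeability, had a lowest value of 16.97, a median of 22.3 and a highest value of 27.9 CPM in AgRP and a lowest value of 32.5, a median of 41.6 and a highest value of 51.4 CPM in POMC libraries, with no overlap (-0.92 ± 0.11, FDR = 2.35e-05). Grik3, a kainate receptor subunit of low glutamate affinity, measured 72.9 to 142 CPM in AgRP and 150.1 to 212 in POMC libraries, again with no overlap (-0.86 ± 0.15, FDR = 0.000760). Gria1 measured 321 to 511 and 524 to 651 CPM, also without overlap (-0.58 ± 0.12, FDR = 0.00180). Htr3b measured 0.369 to 1.03 CPM in AgRP libraries, and 0.636 to 4.33 in POMC libraries, where only the fasted and leptin-treated ones were above 1.03 CPM (-1.42 ± 0.23, FDR = 0.000435). With means of 0.609 CPM in AgRP and 1.82 in POMC libraries, it passed the filter of 1 CPM only through the POMC libraries. Its call is therefore not independent of that filter, and it stayed in the test in 15 of 17 fits with 1 library removed. The glycine receptor subunits Glra3 (-0.80 ± 0.24, FDR = 0.0201) and Glra1 (-0.72 ± 0.27, FDR = 0.0484) and the nicotinic subunit Chrna3 (-0.57 ± 0.16, FDR = 0.0124) depended on single libraries. The call of Glra1 failed in 11 of 17 fits with 1 library removed (log2 difference -0.85 to -0.53, FDR up to 0.184 without POMC leptin-treated replicate 2), namely every library other than AgRP replicate 4 and POMC replicate 1. Glra3 was lost without any 1 of the 3 POMC replicate 2 libraries (FDR up to 0.0909), and Chrna3 without that of the fasted or the leptin-treated state (FDR up to 0.0644).

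Leaving out AgRP replicate 4 and POMC replicate 2 in every state left 1 POMC library per state, so that the spread came from the AgRP libraries alone and the POMC libraries were assumed to vary like them. On that assumption 5 of 44 were called higher and 9 lower (background 7.64% and 8.23%). Gabra2 then became the subunit with the largest positive difference (1.09 ± 0.11, against 0.21 ± 0.25, FDR = 0.525 with all libraries). Its CPM was 49.8 and 71.8 in POMC fed replicates 1 and 2, 37.7 and 92.8 in the fasted pair and 34.6 and 123 in the leptin-treated pair, higher in replicate 2 in each state, while AgRP replicate 4 had the lowest Gabra2 of its state in each state. Gabrg3, a gamma subunit, (-0.78 ± 0.05), Grik4 (-0.55 ± 0.06) and P2rx6 (-0.60 ± 0.20) were then lower and Grik1 (0.64 ± 0.09) higher, and Chrna3 was not called (-0.40 ± 0.15).

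In the fed state alone, with 3 AgRP and 2 POMC libraries, Chrna7 was the 1 subunit of 43 that was called (background 1.06% higher and 1.11% lower). It measured 21.6, 18.8 and 26.7 CPM in AgRP and 51.4 and 48.1 in POMC libraries (-1.16 ± 0.16, FDR = 0.0213), and it missed the threshold without AgRP fed replicate 1 (FDR = 0.1503), POMC fed replicate 1 (0.121) or POMC fed replicate 2 (0.0748). Without AgRP fed replicate 4, 3 subunits were called lower (background 1.12% higher and 1.04% lower). Gabre had 120.2, 173 and 96.6 against 71.2 and 43.2 CPM (1.18 ± 0.30, FDR = 0.143), Glra2 a difference of 0.74 ± 0.15, FDR = 0.0681, Grik3 of -0.86 ± 0.23, FDR = 0.160, Gabrg3 of -0.80 ± 0.34, FDR = 0.385 and P2rx4 of 0.55 ± 0.26, FDR = 0.442. Without the libraries that stood apart, 1 POMC library was left against 2 AgRP libraries, the only replicate pair left to estimate the spread. The POMC library was assumed to vary likewise, and 5 of 42 subunits passed the threshold on that basis (background 1.70% and 1.83%), namely Gabra2 (0.76 ± 0.14) and Glra2 (0.87 ± 0.13) higher and Chrna7 (-1.35 ± 0.15), Grik3 (-1.01 ± 0.15) and Gabrg3 (-0.98 ± 0.12) lower.

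**Figure D4:**
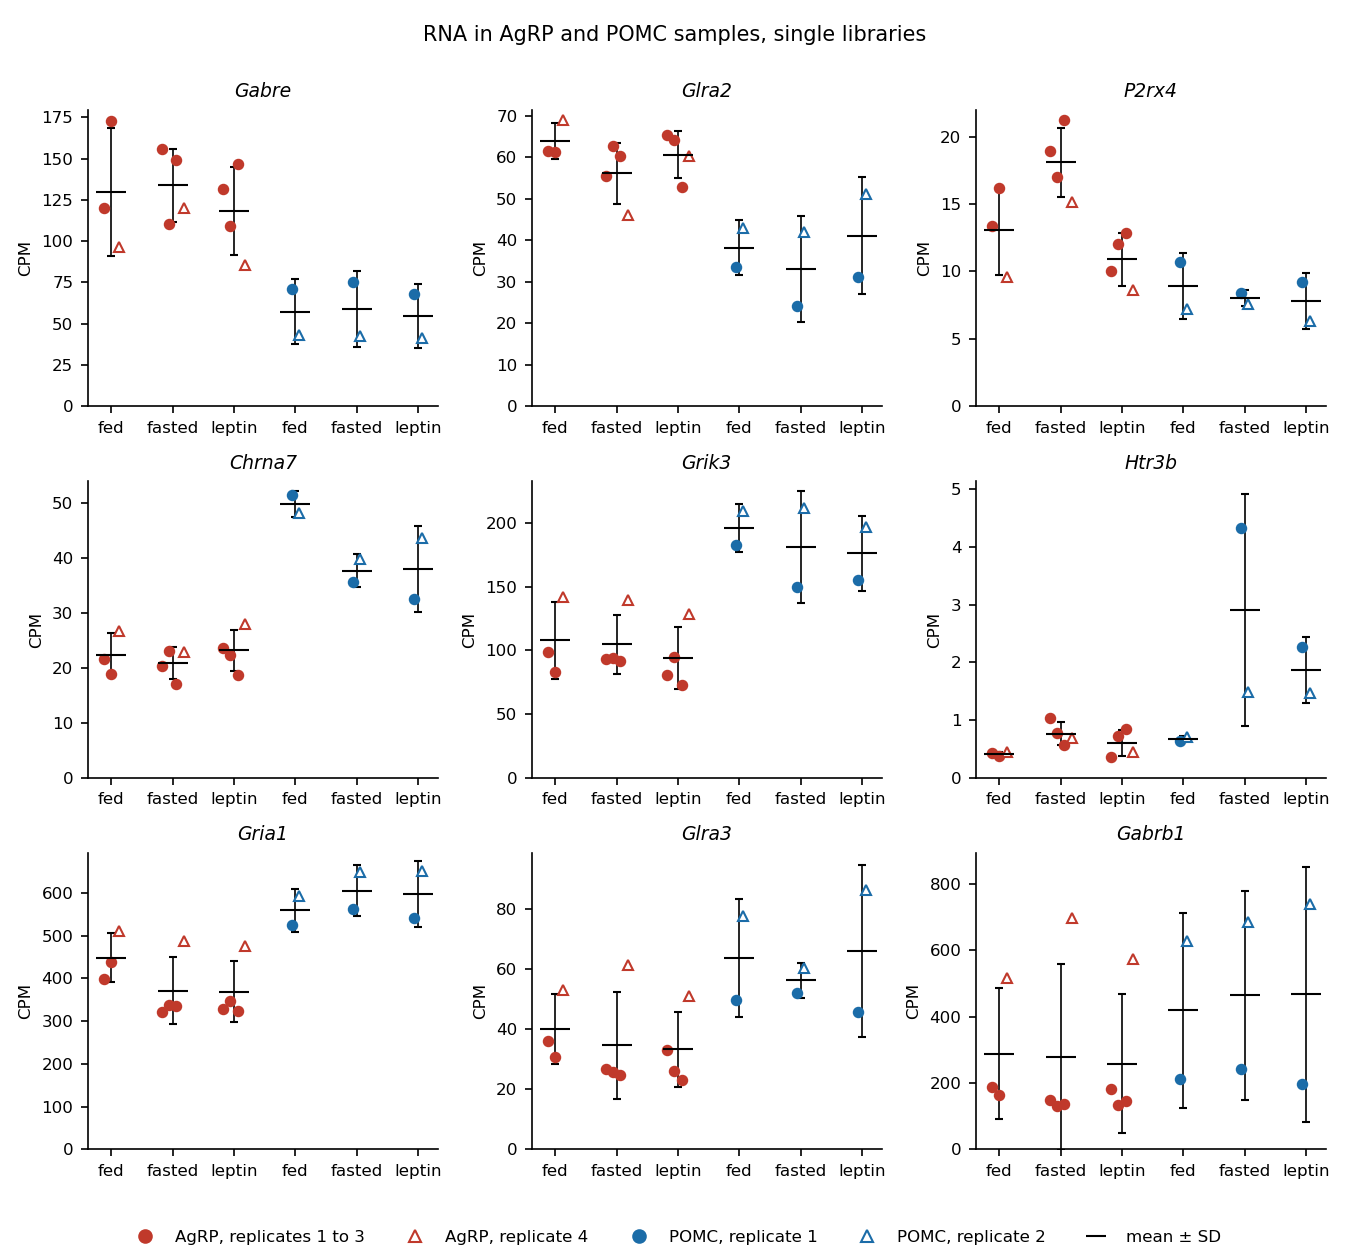
CPM of 9 channel subunits in single libraries of both lines by feeding state, drawn as in the plot of feeding states (SD bars that reach below 0 are cut there). Gabre, Chrna7, Grik3 and Gria1 do not overlap between AgRP and POMC libraries, whereas Gabrb1 differs mainly between the libraries that stood apart (516 to 739 CPM) and the rest (132 to 242 CPM).

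Proteins that assemble, anchor or modulate these receptors were followed in 3 lists. Of 16 tested genes for the assembly and scaffolding of GABA-A and glycine receptors, 0 were called with fasting (2.82% of all genes higher and 1.07% lower) or leptin (1.19% and 0.634%) in AgRP neurons. Of 26 auxiliary proteins of AMPA and kainate receptors, 1 fell with fasting and 1 rose with leptin, and both were Cacng5, a transmembrane AMPA receptor regulatory protein of the stargazin family (fasting -0.67 ± 0.10, FDR = 0.00450, leptin 0.53 ± 0.10, FDR = 0.0165). The median fasting change of that list was -0.13, with 6 of 26 above 0, against 0.017 over all genes. Of 9 tested chaperones and Ly6-type modulators of nicotinic and 5-HT3 receptors, 0 were called with either. The replicate block added Shisa6, an AMPA receptor auxiliary protein (0.53 ± 0.11, FDR = 0.00953), and Lypd6b, a Ly6-type modulator (0.59 ± 0.10, FDR = 0.00226), as higher with leptin, where 1.81% of genes were called higher. Between the lines, the inhibitory synapse organizer Slitrk3 (-0.54 ± 0.14, FDR = 0.00900), the cerebellin Cbln1 (-0.63 ± 0.17, FDR = 0.0104) and the kainate receptor partner Neto1 (-0.93 ± 0.34, FDR = 0.0446) were lower in AgRP libraries over the 3 states, and 0 genes of the lists were higher. These were 3 lower of 51 tested, where 6.45% of all genes were lower and 6.51% higher.

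Chromatin at the subunit genes opened in some places and closed in others with fasting. Of 471 tested peaks in or within 1 kb of a subunit gene, 96 opened (20.4%) and 44 closed (9.34%), where 18.1% and 8.88% of all 102237 tested peaks did. Without fed replicate 1 the counts were 59 and 24 of 470 (11.7% and 4.74% of all peaks), and without fed replicate 2 they were 47 and 44 of 476 (11.5% and 8.20% of all peaks). Kainate receptor genes had 20 opened and 11 closed of 77 peaks and GABA-A receptor genes 24 and 12 of 153. Grid1 alone held 22 opened and 7 closed of its 62 peaks. Of the 65 peaks within 1 kb of a transcript start, 4 opened and 4 closed, against 6.40% and 4.68% of such peaks of all genes.

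The peak over the start of P2rx5 (chr11:73160104-73161392) was among those that opened. It measured 10.1 and 9.50 CPM in fed, 26.5 and 20.4 in fasted and 22.5 and 17.9 in leptin-treated nuclei (1.25 ± 0.26, FDR = 0.00146 with fasting). Fed libraries lay below all others, while fasted and leptin-treated ones overlapped, and the leptin change was -0.21 ± 0.22, FDR = 0.760. RNA and promoter peak of P2rx5 thus both rose with fasting, and the fall of its RNA after leptin came with no called change at the peak. P2rx4 had a promoter peak of 39.7 and 52.6 CPM in fed and 45.3 and 38.2 in fasted nuclei (-0.17 ± 0.18, FDR = 0.490), and the 3 peaks of Chrna1, all inside the gene, were not called. Other peaks within 1 kb of a start that opened were at Chrna9 (2 peaks) and Chrna10, subunits of the hair cell receptor, and those that closed were at Gria1 (-1.43 ± 0.47, FDR = 0.0270), Gabrd (-1.02 ± 0.36, FDR = 0.0382), Grik2 (-0.77 ± 0.22, FDR = 0.0132) and Gabrb1 (-0.56 ± 0.20, FDR = 0.0379). RNA of Chrna9 and Chrna10 averaged only 0.0287 and 0.0792 CPM in AgRP libraries.

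Away from starts, large openings lay in introns. The Grik1 peak printed above, chr16:88258501-88258724, measured 0.122 and 0.0725 CPM in fed, 1.02 and 2.07 in fasted and 1.88 and 1.61 in leptin-treated nuclei (3.96 ± 0.96, FDR = 0.00425). Each fed value was 1 read, so the peak passed the filter of 1 CPM only through the fasted and leptin-treated libraries. It stayed in the test in 3 of 4 fits with 1 library removed, and missed the threshold without fed replicate 2 (FDR = 0.0830). A Gabrg3 peak at chr7:56972637-56972824 changed by 3.45 ± 0.83, FDR = 0.00402 and was lost without fed replicate 2 (FDR = 0.0804). Large closures were in Grid1 (chr14:35542039-35542499, -3.47 ± 0.49, FDR = 7.56e-05), with 5.13 and 4.86 CPM in fed against 0.639 and 0.251 in fasted nuclei, in Grik2 (chr10:49108546-49109137, -2.69 ± 0.66, FDR = 0.00510) and in Gabra4 (chr5:71626652-71627104, -2.64 ± 0.41, FDR = 0.000166). Both fasted values of the Grid1 peak were below 1 CPM, so it passed the filter only through the other libraries.

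Leptin moved fewer peaks. Of the 471, 8 opened and 1 closed, against 2.41% and 0.669% of all peaks, and none of the 65 near a start was called (0.685% and 0.228% of such peaks of all genes). Without leptin-treated replicate 1, 2 opened and 1 closed (0.702% and 0.130% of all peaks), and without replicate 2 these counts were 4 and 0 (0.851% and 0.00690%). Without fasted replicate 1 they were 5 and 0 (0.594% and 0.0303%), and without fasted replicate 2 they were 6 and 9 (1.73% and 1.43%). The Chrna9 peak whose middle is printed above (chr5:65973229-65973813) measured 0.855 and 1.45 CPM in fed, 2.11 and 2.38 in fasted and 10.1 and 10.4 in leptin-treated nuclei (2.19 ± 0.31, FDR = 0.000531). RNA of Chrna9 was almost absent, with 26 reads over all 17 libraries. The gene overlaps 4930480C01Rik and Gm43771, and 9130230L23Rik lies 2032 bases away. Which gene the peak serves was not tested. The closed peak, also at Chrna9 (chr5:65955065-65956086, -0.79 ± 0.20, FDR = 0.0281), failed in 3 of 4 fits with 1 library removed (FDR up to 0.530 without fasted replicate 1) and held only without fasted replicate 2.

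Comparing the sorted nuclei of fed mice, 72 of 260 tested subunit-gene peaks were more open in AgRP-positive than in AgRP-negative nuclei (27.7%) and 35 were less open (13.5%), against 23.9% and 15.6% of all 66560 tested peaks. The counts were 43 and 16 without AgRP-negative replicate 1 (16.1% and 9.21% of all peaks), and 46 and 22 without AgRP-negative replicate 2 (16.2% and 9.97%). Of the 46 near a start, 4 were higher and 7 lower, against 6.70% and 14.7%. GABA-A receptor genes had 29 higher and 9 lower of 79 peaks, and 11 of the 17 peaks of Gabrg3 were higher.

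The Gabrg3 peak printed above (chr7:56864481-56865008) measured 0.616 and 0.118 CPM in AgRP-negative and 9.41 and 9.74 in AgRP-positive nuclei (4.68 ± 0.55, FDR = 9.14e-16). The value of 0.118 CPM was 1 read. With both AgRP-negative values below 1 CPM, the peak passed the filter of 1 CPM only through the AgRP-positive nuclei. Its call is therefore not independent of that filter. Another Gabrg3 peak (chr7:57309077-57309594) differed by 3.61 ± 0.39, FDR = 2.77e-18. RNA of Gabrg3 was not higher in AgRP than in POMC libraries (-0.70 ± 0.28, FDR = 0.0673), a comparison with other cells than the AgRP-negative nuclei. Large differences the other way were in Grik3 (chr4:125645260-125645530, -3.78 ± 0.61, FDR = 9.77e-09) and Grik4 (chr9:42670639-42670875, -2.88 ± 0.57, FDR = 3.87e-06).

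At promoters, named here after their values were seen, the P2rx5 peak (chr11:73160099-73161138) measured 7.88 and 7.82 CPM in AgRP-negative and 13.9 and 11.8 in AgRP-positive nuclei (0.71 ± 0.25, FDR = 0.0133), and the Gabre peak (chrX:72274367-72275219) 9.85 and 7.34 and 13.2 and 13.5 (0.64 ± 0.24, FDR = 0.0218). Neither overlapped, but both calls failed in 3 of 4 fits with 1 library removed. That of P2rx5 held only without AgRP-positive replicate 2 (FDR up to 0.101 otherwise) and that of Gabre only without AgRP-negative replicate 1 (FDR up to 0.291), and DESeq2 called neither (adjusted p = 0.0957 and 0.138). The promoter peak of Htr3b was also higher (2.46 ± 0.76, FDR = 0.00438), at 2.91 CPM or less, as was 1 of Chrna9. Lower in AgRP-positive nuclei were promoter peaks of Glra1, Gabrb2 (2 peaks), Gria3, Gria1 and Chrnb1, among others.

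**Figure D5:**
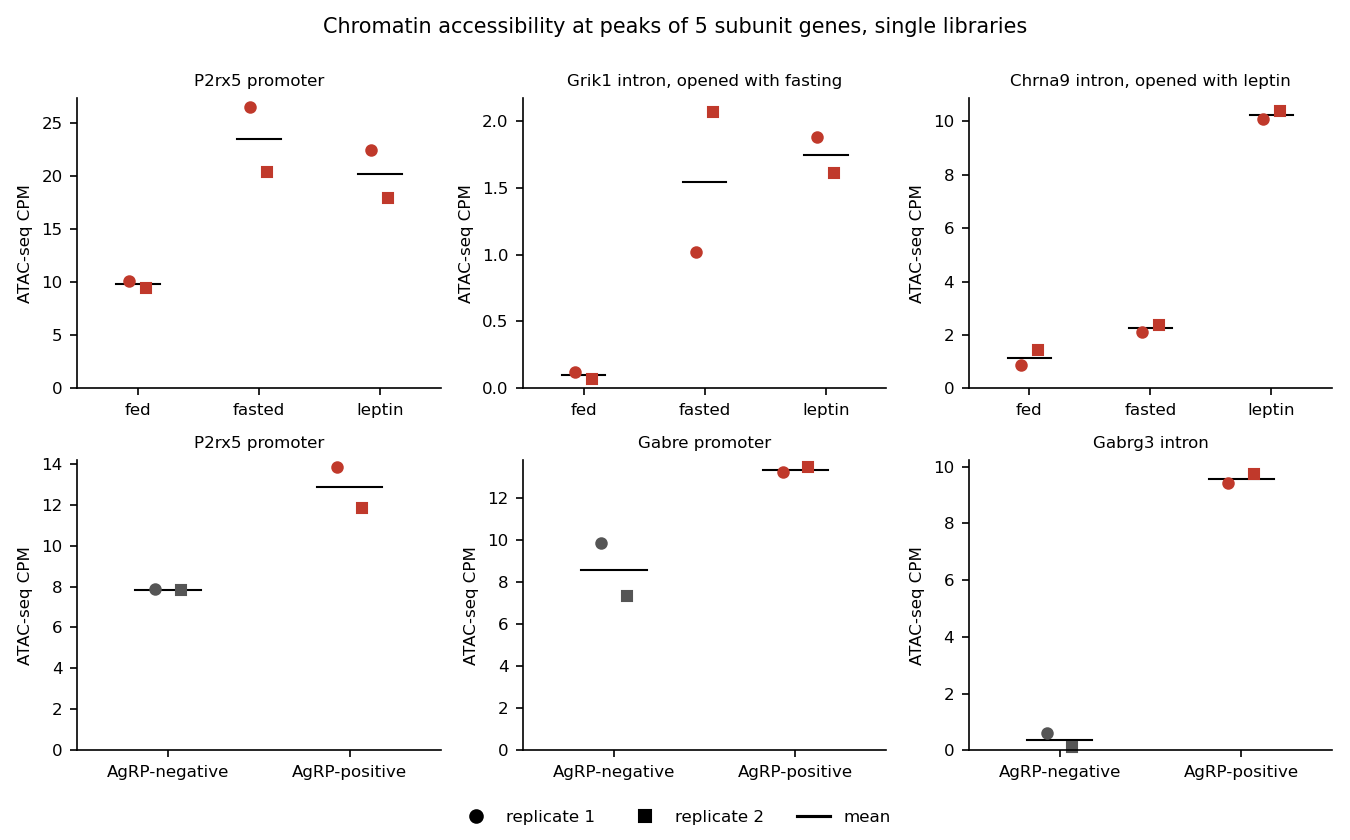
ATAC-seq CPM at 6 peaks of subunit genes in single libraries (circles replicate 1, squares replicate 2, lines means), across feeding states in AgRP nuclei above and between AgRP-negative and AgRP-positive nuclei below. The P2rx5 promoter rises from about 10 CPM when fed to over 20 when fasted, the Chrna9 intron peak is highest after leptin, and the Gabrg3 intron peak is near 0 in AgRP-negative nuclei.

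3 motifs, those marked in capitals above where present, were counted on both strands in the middle 300 bases of the peaks. TGANTCA, the AP-1 site bound by Fos and Jun, was present in 62.5% of the 96 subunit-gene peaks that opened with fasting and in 6.82% of the 44 that closed. The share was 71.1% among all peaks that opened, 5.43% among all that closed and 31.2% among all peaks. TTCNNNGAA, the GAS site bound by STAT factors, was present in 4 of the 8 subunit-gene peaks that opened with leptin (50.0%), against 39.2% of all peaks that opened with leptin and 12.4% of all peaks. TGACGTCA, the CRE site, was present in none of these 96, 44 and 8 peaks and in 0.684% of all peaks. In the 300 bases around RefSeq starts (250 before to 50 after), found for 48 of the 60 genes, AP-1 sites were present in 4.17% of subunit genes and 7.81% of all genes, GAS sites in 10.4% and 8.30%, and CRE sites in 0.00% and 1.79%. P2rx5 has no entry in that promoter table.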

How the data were processed

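For RNA, the authors used HISAT2 and GRCm38, and featureCounts gave counts for each gene of an annotation altered to limit transcript overlap. For ATAC-seq, the authors used Bowtie2 for alignment, removed duplicates, merged the MACS2 peaks of all libraries and obtained counts over them from BEDtools. The raw counts were used here as deposited, while gene lengths came from the same RNA table. The tables of log2 CPM were not used, and the whole-arcuate RNA and CUT&RUN samples were not analysed here. Results of some subunit genes are not reported here, though counts over all subunits include them. Nextera libraries do not mark strand, so reads shared by overlapping genes on opposite strands (such as Gabrb1 with Gabra4) cannot be told apart. Counts were scaled by TMM and tested with edgeR 4.0.16 (R 4.3.3) by quasi-likelihood over all genes or peaks with a mean above 1 CPM, at an FDR (Benjamini-Hochberg) below 0.05 and a log2 change beyond 0.5. Errors of log2 changes are SE. Among states the fit held the libraries of one line, and lines were compared in the fed state and over the mean of the 3 states. Levels between genes are CPM per kilobase of the exon length in the table. P-values measure the spread between pools of mice, which were taken as independent except under the replicate block.

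Alternatives were DESeq2 1.42.0, library-size scaling, no filter, leaving out each library of the groups compared, the replicate number as a block and, chosen after seeing the data, leaving out AgRP replicate 4 and POMC replicate 2. Replicate numbers come from the sample titles. In AgRP RNA, deviations from group means correlated across genes at 0.536 to 0.814 in all 10 same-numbered pairs, and at -0.642 to 0.642 in the 30 others. In POMC RNA they correlated at 0.733 to 0.770 in the 6 same-numbered pairs. With 2 POMC libraries per state the other pairs mirror these values (-0.770 to -0.733), so the 6 are not independent. The shifts of AgRP replicate 4 and POMC replicate 2 are part of these correlations. The numbers were taken to pair the RNA samples. Where leaving out libraries left a group with 1, it was assumed to vary like the other groups of the fit. No 2 libraries held identical values. The fits were tested on simulated counts that were independent between libraries, without the replicate shifts or the pairing seen here. The comparison of lines over the mean of 3 states was not among those simulated. The subunit genes, the lists and the rule for named genes were chosen with earlier results of these data known. The rule names every subunit called in an RNA comparison, the 8 highest per line, the highest of each class, and the 3 largest estimates each way in the AgRP fasting, AgRP leptin and line comparisons, plus the 3 called peaks with the largest change each way. Grik1, Grik4 and P2rx6 RNA and the peaks near a start were chosen after their values were seen. Where groups are said not to overlap, this describes the same values that were tested and adds no separate support. Promoter sequences come from RefSeq (GRCm38.p6).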

Additional observations from a re-analysis of the deposited data

Results flagged for a closer look

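In 11 of 56 groups of 4 AgRP libraries (28 named subunits, fasted and leptin-treated), 1 library lay apart from the other 3, its gap to the nearest being a larger part of the range than Dixon's 95% critical value for 4 samples. Chance alone gives about 1 in 20. In 10 of the 11 the library was replicate 4, the one that stood apart over all genes. It measured 697 CPM for Gabrb1 when fasted (nearest 149) and 572 when leptin-treated (nearest 182), and 143 and 119 for Gabrg3 (nearest 55.0 and 54.3). Glra1 reached 36.7 and 36.8 CPM (nearest 17.4 and 18.1) and Gria1 488 and 476 (nearest 338 and 348), while Glra3 reached 61.6 (nearest 26.8) and Grik3 139.5 (nearest 94.0) in the fasted state. The other was Gabrq in fasted replicate 2, at 241 CPM against 296 in the nearest library. The cause was not tested.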

How the results depend on the processing

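Of 144 alternative fits of the 12 counts of called subunits or peaks, 100 stayed within 1.5 times the reported count. With library-size scaling or without the filter, the 2 calls of leptin against fasted and the 2 of leptin against fed both became 0, and without AgRP replicate 4 the latter 2 also became 0. The fed comparison of lines went from 1 to 5 with DESeq2, 4 with library-size scaling and 5 without AgRP replicate 4 and POMC replicate 2, which leaves 1 POMC library. The difference of fasting changes between lines went from 0 to 1 with DESeq2 and to 3 with the replicate block. Peaks near a start counted 8 with fasting, 0 with leptin and 11 between sorted nuclei, and the 9 leptin peaks became 4 with DESeq2 and 23 with the replicate block (13 opened and 10 closed, with 3.86% and 1.89% of all peaks). Leaving out 1 library gave 1 to 3 calls with fasting, 0 to 2 for leptin against fasted, 0 to 1 for leptin against fed, 0 to 3 between lines in the fed state, 8 to 16 over the 3 states, 0 to 1 for the fasting difference, and 83 to 107, 3 to 15 and 59 to 94 peaks with fasting, with leptin and between sorted nuclei. The causes were not tested.

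Among 59 single genes or peaks, 639 of 742 alternatives kept direction and side of the threshold, 79 lost and 20 gained a call, and 4 changed sign. These were Chrnb3 with leptin (-0.31 without replicate 4, and -0.25 to 0.95 leaving out 1 library) and Gabrd with fasting (-0.16 to 1.01), both at 3.07 CPM or less in AgRP libraries. In POMC RNA the replicate block called 0 subunits, and in AgRP RNA it lost no call. Across ATAC-seq states same-numbered pairs correlated at -0.00228 to 0.165, so that the numbers were not taken as pairs, and the block gave 107 opened and 60 closed peaks with fasting (20.6% and 11.5% of all peaks). Both kinds of sorted nuclei came from the same pools, but the labels do not tie a number to a pool. Same-numbered pairs correlated at 0.0988, and the block gave 75 higher and 40 lower peaks (25.9% and 17.4%). No paired analysis was possible for AgRP against POMC because the fed groups share only replicate 1 and the lines are different mice. With 2 to 4 libraries per group, effects smaller than a called one may go undetected at this depth.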
